A study of Homo sapiens with 12 samples.

Results

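RNA from the KK line was compared directly with RNA from the WT line, 2 of the 4 Tet-On U2OS lines of the study, using the 3 replicates of each line, 6 of the 12 samples in all. U2OS is a human osteosarcoma cell line, and in a Tet-On line doxycycline switches on a gene carried under a tetracycline-responsive promoter. The WT line carried HA-tagged wild-type E2F1. The KK line carried HA-tagged E2F1 in which the arginines at positions 111 and 113 were changed to lysine (R111K and R113K), and it kept the arginine that is replaced in the R109K line of the study, the site of PRMT1. The pTRE line carried the empty vector and is used here only to place the levels. All cells, pTRE included, were grown under G418 and hygromycin B and received 1 µg/ml doxycycline for 24 h, so that doxycycline itself is shared by the groups. All lines also kept their own E2F1 gene. Each form of E2F1 was carried by 1 stable line, and whether that line was a clone or a pool is not given in the sources used here. Differences between the lines and differences between the forms of E2F1 therefore cannot be told apart.

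E2F1 is a transcription factor that binds DNA as a heterodimer with a DP protein and activates genes of the cell cycle, of DNA replication and of apoptosis. It is held inactive by the retinoblastoma protein until cells pass from G1 into S phase. Arginine residues close to its cyclin A binding region are methylated by PRMT1, which makes the asymmetric mark, and by PRMT5, which makes the symmetric mark. The KK derivative lacks the residues on which PRMT5 acts.

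The coding sequence is shown because these codons are the whole designed difference between the WT and KK constructs. It is the reference sequence of E2F1 (GRCh37, chr20:32268133-32268183, minus strand, printed in the coding direction), and the deposited counts do not hold the sequence of the constructs. The stretch covers residues 101 to 117 of 437, all within exon 2 of 7, and the capitals mark codons 111 (AGA) and 113 (CGC).
E2F1 residues 101 to 117: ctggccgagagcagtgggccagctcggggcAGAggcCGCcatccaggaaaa

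WT replicate 2 stood apart from the other libraries. It held 11500537 reads on genes, against 21366887 to 28751603 in the other WT and KK libraries, and 58.7% of its reads fell outside annotated genes, against 23.6% to 29.6% in the other 11 libraries. The standard deviation over genes of its log2 difference from the other libraries of its line was 0.69. The same measure was 0.45 in KK replicate 2, the next highest, and 0.30 to 0.43 in the other 10. Counts of genes, gene groups and the genes with the lowest p are therefore mostly given with and without WT replicate 2. An alternative without both replicates numbered 2, chosen after the data were seen, is given for some of them. Groups described without that alternative can have moved under it as well. The mesenchymal genes VIM (1150 to 1749 CPM over the 6 libraries) and COL1A1 (541 to 723 CPM) were present at high levels in both lines. So was SPARC (457 to 769 CPM), and FN1 (188 to 347 CPM), CDH2 (80.4 to 129 CPM) and THY1 (90.3 to 165 CPM) were present. The bone gene RUNX2 was at 9.07 to 14.3 CPM, while ALPL (0.321 to 2.61 CPM) and NT5E (0.816 to 1.34 CPM) were low. COL1A2 (9 reads in WT and 10 in KK) and the bone gene SP7 (4 reads in WT and 1 in KK) were nearly absent. The epithelial keratin genes KRT8 and KRT18 were at 168 to 332 CPM, and KRT19 had 5 reads in WT and 0 in KK. KRT14 was low, with 24 reads in WT and 73 in KK, at 0.16 to 0.43 and 0.76 to 1.39 CPM with no overlap. EPCAM had 803 reads in WT and 939 in KK, and CLDN4 had 457 and 615. Of the 10 leukocyte markers, 5 were tested; CD68 had 1531 reads in WT and 1695 in KK, ITGAM 294 and 74, CD14 61 and 48, and PTPRC 31 and 33, while CD3E and LYZ had 0 in both.

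E2F1 RNA was high in both induced lines. Normalised read counts, given throughout as CPM, the reads on a gene scaled to a common library total with edgeR's TMM factors, were 89.2, 82.9 and 101 in pTRE replicates 1 to 3, 2315, 1650 and 1469 in WT, and 1360, 1478 and 1112 in KK. Both lines stood above every pTRE sample, and the lowest WT value lay below the highest KK value. The log2 fold change of KK against WT was -0.46 with a standard error (SE) of 0.18, and its 95% interval was -0.84 to -0.08. It did not pass the threshold over all genes (edgeR quasi-likelihood test, adjusted p = 0.574), and it was -0.52 without WT replicate 2 and -0.24 without WT replicate 1, the highest sample. Reads of the construct and of the cells' own E2F1 gene cannot be told apart in these counts.

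Few transcripts were regulated between the lines. The word regulated is kept for transcripts with a Benjamini-Hochberg adjusted p-value under 0.01 and more than a 2-fold change, and 1 of the 16625 genes tested passed, which is 0.00602% of them. This gene was LINC00346, which was down-regulated in KK. At an adjusted p-value under 0.05 with no limit on the fold, 2 genes (0.012%) passed, the other being MMP19. Without WT replicate 2, LINC00346 was again the only regulated gene among 16823 (0.00594%). The precision of the comparison can be read from the 95% intervals, which lay within 2-fold either way for 13481 genes, or 81.1% of those tested. The median SE of a log2 fold change was 0.17.

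At an unadjusted p-value under 0.05, a looser rule used here only to describe gene groups, 625 genes (3.76%) were higher in KK and 790 (4.75%) were lower, 8.51% in all. Without WT replicate 2, 338 genes (2.01%) were higher and 329 (1.96%) were lower, 3.96% in all. Of the 1415 genes that met this rule with all samples, 415 (29.3%) also met it without that library, and they were 63.5% of the genes found without it that were tested in both. Of these shared genes, 206 were higher and 207 lower in both analyses. Without both replicates 2, 313 genes (1.87%) were higher and 259 (1.55%) lower.

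**Figure D1:**
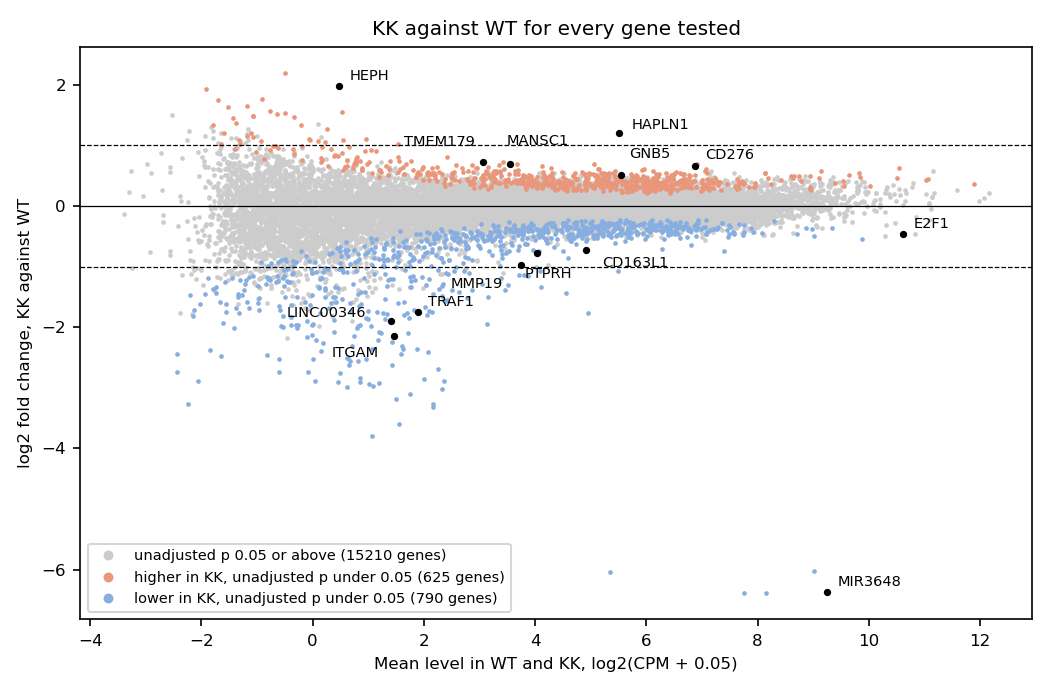
Each point is 1 of the 16625 tested genes, with its mean level in WT and KK on the x axis, as log2(CPM + 0.05), and its log2 fold change of KK against WT on the y axis; dashed lines mark 2-fold. Most genes lie close to 0, LINC00346 lies at -1.90, and the points near -6, MIR3648 among them, are genes that were high in WT replicate 2 alone.

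LINC00346, a long intergenic noncoding RNA, lies on the minus strand of chromosome 13 (GRCh37, chr13:111516334-111522677), where the annotation places no other gene over it. Its CPM values were 4.59, 3.93 and 3.76 in WT and 1.00, 1.15 and 1.14 in KK, from 129, 49 and 104 reads and from 29, 24 and 29 reads. All KK samples lay below all WT samples. The pTRE samples, at 5.78, 6.88 and 5.73 CPM, lay above both lines. The log2 fold change was -1.90 (SE 0.20, 95% interval -2.33 to -1.47, edgeR adjusted p = 0.00157), and it was -1.93 without WT replicate 2 (adjusted p = 0.00128). The direction held in every alternative, but the call did not: the adjusted p was 0.0155 without WT replicate 1, 0.0302 without KK replicate 1, 0.0110 without KK replicate 2 and 0.0183 without KK replicate 3, and it was 0.188 when only the 6 WT and KK samples entered the fit. Without WT replicate 3 a second gene was called, and the log2 fold change of HAPLN1 was then 1.56 (adjusted p = 0.00152 by edgeR).

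MMP19, a matrix metalloproteinase that cleaves components of the basement membrane, was lower in KK by just under 2-fold (chr12:56229217-56236750). Its values were 18.0, 18.0 and 17.2 CPM in WT, 9.41, 8.35 and 9.24 CPM in KK, and 23.9, 26.8 and 28.9 CPM in pTRE. The groups did not overlap, and the lines ran in the order pTRE, WT, KK. Its log2 fold change was -0.97 (SE 0.12, edgeR adjusted p = 0.00599), and it was -0.96 without WT replicate 2 (adjusted p = 0.0127). It overlaps TMEM198B on the opposite strand, and whether reads were counted by strand is not given in the sources used here. MMP19 and the other genes of the next paragraphs that stand outside the 10 largest rises and falls were chosen after their values were seen, as the 12 genes with the lowest p.

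Of these 12 genes, 4 others were lower in KK. ITGAM, the integrin subunit CD11b of myeloid cells, had 4.63, 5.06 and 3.65 CPM in WT and 0.865, 1.10 and 1.03 CPM in KK, with no overlap, a log2 fold change of -2.15 (SE 0.34; -2.06 without WT replicate 2) and an adjusted p of 0.0512 by edgeR. In pTRE it had 1.24, 2.43 and 0.882 CPM, so that 2 of the 3 KK samples lay within the pTRE range and all WT samples above it. ITGAM is itself on the list of leukocyte markers, whose summed level was 27.2 to 29.5 CPM in WT and 22.3 to 29.9 CPM in KK, and 1 of the 5 tested markers, ITGAM, was lower. TRAF1, an adaptor of TNF receptors that NF-kB induces, had 4.59, 6.91 and 5.46 CPM in WT and 0.865, 1.54 and 2.61 CPM in KK. Its log2 fold change was -1.75 (SE 0.34, adjusted p = 0.204 by edgeR; -1.60 without WT replicate 2), and KK lay apart from WT. The pTRE samples, at 2.60, 4.67 and 3.89 CPM, overlapped both lines. The receptor-type tyrosine phosphatase gene PTPRH (log2 fold change -0.77, SE 0.13; -0.69 without WT replicate 2) and the scavenger receptor gene CD163L1 (-0.72, SE 0.14; -0.63) were lower in every KK sample than in every WT sample. PTPRH had 12.1 ± 0.15 CPM in KK (SD, n = 3), below the 13.5 to 15.9 CPM of pTRE, whereas CD163L1 had 20.8 to 25.8 CPM in KK, between pTRE at 14.5 to 16.3 CPM and WT at 30.5 to 42.1 CPM.

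The other 6 of the 12 genes were higher in KK. HEPH, the copper-dependent ferroxidase hephaestin, had 0.605, 0.402 and 0.578 CPM in WT, from 17, 5 and 16 reads, and 2.80, 2.02 and 1.66 CPM in KK. Its log2 fold change was 1.98 (SE 0.31, adjusted p = 0.0512 by edgeR; 1.87 without WT replicate 2). The pTRE samples held 4.13, 3.88 and 2.64 CPM, so that KK lay above WT and overlapped pTRE. HAPLN1, the link protein that ties proteoglycans to hyaluronan, had 22.2, 21.4 and 39.0 CPM in WT, 58.5, 64.6 and 67.4 CPM in KK and 140, 112 and 121 CPM in pTRE. The 3 lines did not overlap, and the log2 fold change of KK against WT was 1.20 (SE 0.20, adjusted p = 0.0695 by edgeR; 1.05 without WT replicate 2). CD276, the immune checkpoint ligand B7-H3, was at 81.4, 85.2 and 105 CPM in WT and at 144, 147 and 141 CPM in KK (log2 fold change 0.67, SE 0.12; 0.62 without WT replicate 2), within the pTRE range of 136 to 168 CPM. MANSC1 (0.69, SE 0.14), TMEM179 (0.72, SE 0.15) and GNB5, a G protein beta subunit gene (0.52, SE 0.11), with 0.67, 0.61 and 0.45 without WT replicate 2, were higher in all KK samples than in all WT and all pTRE samples. DESeq2 called 5 genes regulated, namely LINC00346, ITGAM, TRAF1, HEPH and HAPLN1, and edgeR without its filter on low counts called 4, these without TRAF1.

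**Figure D2:**
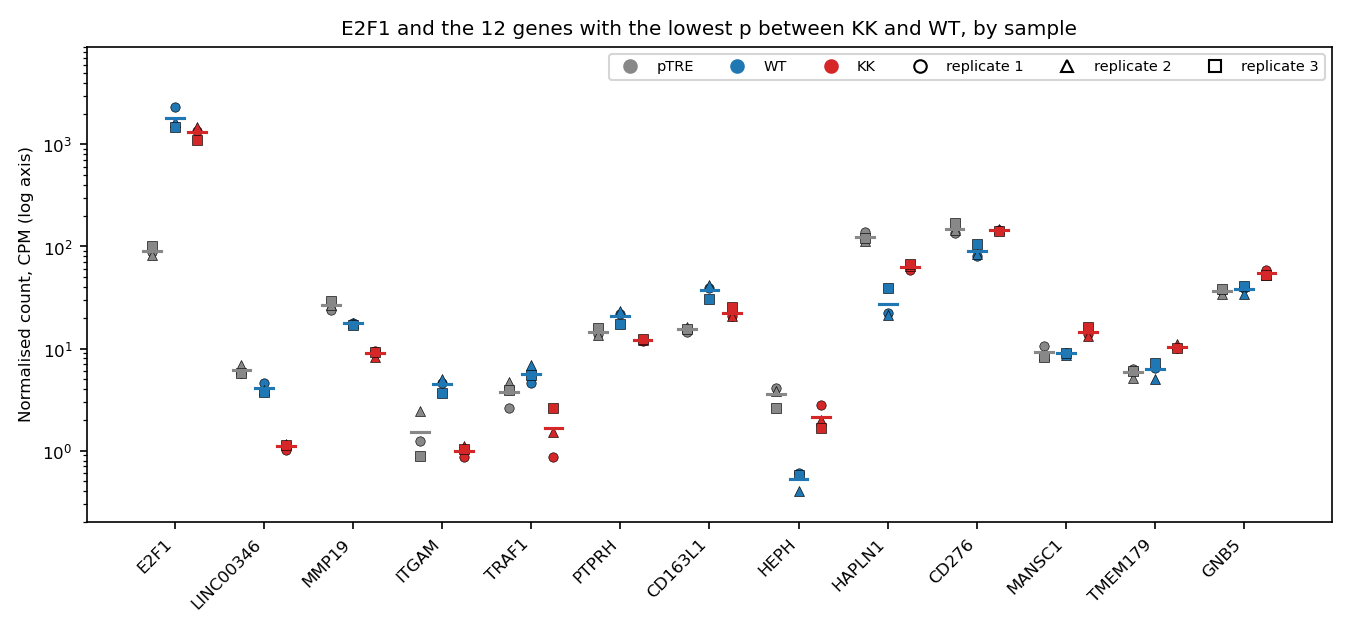
CPM on a log axis of E2F1 and the 12 genes with the lowest p, in each of the 3 replicates of pTRE (grey), WT (blue) and KK (red); short bars are means. LINC00346, MMP19, ITGAM, TRAF1, PTPRH and CD163L1 lie lower in KK than in WT with no overlap, and HEPH, HAPLN1, CD276, MANSC1, TMEM179 and GNB5 lie higher with no overlap.

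Among genes with a mean of at least 50 reads, an unadjusted p under 0.05 and replicates that did not overlap, 640 could be ranked. The 10 highest in KK were HAPLN1, CD96, LINC00511, HSD17B3, C1orf233, SIGIRR, CCL26, C4orf48, TMEM179 and PAGE2B, with log2 fold changes from 1.20 down to 0.70, and none was regulated. CD96, a receptor of T and NK cells, was at 1.82, 1.53 and 2.24 CPM in WT, at 3.70, 3.99 and 3.87 CPM in KK and at 1.65, 1.67 and 1.84 CPM in pTRE, so that KK alone was high (log2 fold change 1.03, SE 0.26, edgeR adjusted p = 0.567; 0.92 without WT replicate 2). LINC00511 was lowest in WT (1.39, 1.28 and 1.77 CPM), at 3.15, 2.16 and 3.12 CPM in KK, and highest on average in pTRE (6.20, 3.53 and 5.99 CPM). HSD17B3, a hydroxysteroid dehydrogenase gene, had a log2 fold change of 0.81. KK replicate 2 was the highest of the WT and KK libraries for CD96, TMEM179, CCL26, C4orf48, SIGIRR, C1orf233 and PAGE2B. Their log2 fold changes fell without both replicates 2, for CD96 from 1.03 to 0.89 and for TMEM179 from 0.72 to 0.56. The chemokine gene CCL26 went from 0.73 to 0.29, C4orf48 from 0.72 to 0.09, the interleukin-1 receptor regulator SIGIRR from 0.73 to 0.41, C1orf233 from 0.75 to 0.36 and PAGE2B from 0.70 to 0.26.

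The 10 lowest in KK were IL1A, ITGAM, LOC100335030, LINC00346, TRAF1, AKR7A2P1, HRNR, YPEL4, BST2 and PLA2G4C. WT replicate 2 was far above the other WT samples for 5 of them. IL1A, which encodes interleukin-1 alpha, was at 1.78, 12.2 and 1.37 CPM in WT and at 0.934, 0.720 and 1.18 CPM in KK, and its log2 fold change went from -2.35 to -0.72 without WT replicate 2. LOC100335030 went from -1.95 to -0.32, AKR7A2P1 from -1.42 to -0.53, HRNR from -1.24 to -0.36 and YPEL4 from -1.22 to -0.67. BST2 (tetherin), an interferon-induced protein that holds budding viruses at the cell surface, was lower in KK whether that library was used or not. It was at 2.99, 2.17 and 5.85 CPM in WT, at 1.21, 1.97 and 1.82 CPM in KK and at 20.2, 18.6 and 30.5 CPM in pTRE, with log2 fold changes of -1.21 (SE 0.34) and -1.43 (edgeR adjusted p = 0.574 and 0.563). The phospholipase gene PLA2G4C had -1.17 (SE 0.26), and -0.88 without WT replicate 2.

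Gene groups of known function are described next by how many members met the unadjusted rule and by the median log2 fold change of all tested members, beside the 3.76% and 4.75% of all genes that were higher and lower, and the median of -0.01 over all genes. No test was made on the groups.

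Of 49 replication licensing and fork genes, 2 were higher and 2 lower in KK, with a median of 0.06, and without WT replicate 2, 1 was higher and 1 lower. Of 25 G1 and S phase cyclin, CDK and E2F family genes, 0 were higher and 1 lower (median -0.02), and without WT replicate 2, 0 of each. Of 43 mitosis and kinetochore genes, 1 was higher and 1 lower (median 0.06), and without WT replicate 2, 0 of each. The 6 tested CDK inhibitor genes held no gene of either kind. CDKN2C, which encodes the CDK4 and CDK6 inhibitor p18, was at 42.3, 39.5 and 47.9 CPM in pTRE, 200, 126 and 173 CPM in WT and 198, 215 and 159 CPM in KK. Both lines thus stood above pTRE, and the log2 difference between them was 0.19 with a 95% interval of -0.15 to 0.54. The members named by the lowest p were WDHD1, a replisome anchor, which was lower in KK (91.2, 111 and 100 CPM in WT, 74.0, 69.0 and 76.9 CPM in KK, log2 fold change -0.46, SE 0.11), and TIPIN, a fork protection protein, which was higher (0.37, SE 0.12). Of 13 deoxynucleotide synthesis genes, 2 were higher and 0 lower, with or without WT replicate 2, and 1 was higher without both replicates 2. DUT, the dUTPase, had 105, 66.8 and 104 CPM in WT and 133, 180 and 135 CPM in KK, with no overlap. Its log2 fold change was 0.70 (SE 0.17), 0.52 without WT replicate 2 and 0.35 without both replicates 2. The median over the 13 genes was 0.10, and -0.02 without WT replicate 2.

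Of 30 pro-apoptotic genes, 2 were higher in KK and 0 lower; without WT replicate 2 there were 0 of each, and without both replicates 2, 1 was higher. The 2 were BAD (log2 fold change 0.48) and BID (0.31), which went to 0.30 and 0.19 without that library. Over all alternatives their lowest log2 fold changes were 0.05 and 0.06, and the gene that was higher without both replicates 2 was another member. APAF1, the scaffold of the apoptosome, was at 55.5, 71.1 and 46.9 CPM in WT and at 51.3, 31.1 and 50.3 CPM in KK, and the lines overlapped. Of 28 p53 target genes, 1 was higher and 0 lower, and without WT replicate 2, 1 was higher and 1 lower. Of 15 anti-apoptotic genes, 0 were higher and 3 lower, or 20% of them, and 2 were lower without WT replicate 2. They were TRAF1, BIRC3 and CFLAR, of which CFLAR was lost without that library. The median of this group was -0.13, -0.11 without WT replicate 2, and -0.12 without both replicates 2.

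Among the NF-kB and inflammatory genes, the lower members outnumbered the higher ones with all libraries, without WT replicate 2 and without both replicates 2. NF-kB is a family of transcription factors, set free from its inhibitors by cytokine signals, that induces cytokines, chemokines and its own negative regulators. Of 23 genes listed, 19 were tested, and 5 (26.3%) were lower and 1 (5.26%) higher in KK, against 4.75% and 3.76% of all genes. Without WT replicate 2, 6 (31.6%) were lower and 1 higher, against 1.96% and 2.01% of all genes, and without both replicates 2, 4 were lower and 1 higher. The median was -0.18, then -0.17 and -0.12. Measured against the mean of pTRE, the median log2 difference of these genes was 0.57, 0.32 and 0.15 in WT replicates 1 to 3. It was 0.09, -0.02 and 0.41 in KK replicates 1 to 3, so the library medians of the lines overlapped.

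Of the chemokines, CXCL8 (interleukin-8) was at 5.27, 4.26 and 3.11 CPM in WT and at 1.97, 1.73 and 2.37 CPM in KK, with a log2 fold change of -1.05 (SE 0.31). Of the genes that restrain the pathway or cell death, BIRC3, which encodes the ubiquitin ligase cIAP2, was at 11.6, 11.8 and 10.3 CPM in WT and at 6.40, 5.19 and 8.41 CPM in KK (-0.74, SE 0.24), and TNFAIP3, which encodes the deubiquitinase A20, was at 19.5 ± 2.4 CPM in WT and 14.1 ± 1.9 CPM in KK (SD, n = 3; -0.47, SE 0.18). For all 3 genes every KK sample lay below every WT sample, and the log2 fold changes without WT replicate 2 were -1.04, -0.71 and -0.49. IL1B was lower only through WT replicate 2, at 7.47 CPM there against 0.214 and 0.289 CPM in the other WT samples, and its log2 fold change turned from -2.98 to 0.27 without it. Without that library the inhibitor gene NFKBIA (-0.37) and the subunit gene NFKB1 (-0.25) joined the lower genes. CSF2, which encodes the growth factor GM-CSF, was the higher member, at 0.25 ± 0.12 CPM in WT and 0.54 ± 0.29 CPM in KK. The subunit genes NFKB2 (-0.23) and RELB (-0.23) and the targets SOD2 (0.16), LIF (-0.03) and CCL2 (0.05) did not meet the rule. TNFAIP3 and the last 8 genes, from NFKBIA on, were named after their values were seen. None of these genes was regulated, and the lowest adjusted p among them was 0.574 by edgeR.

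**Figure D3:**
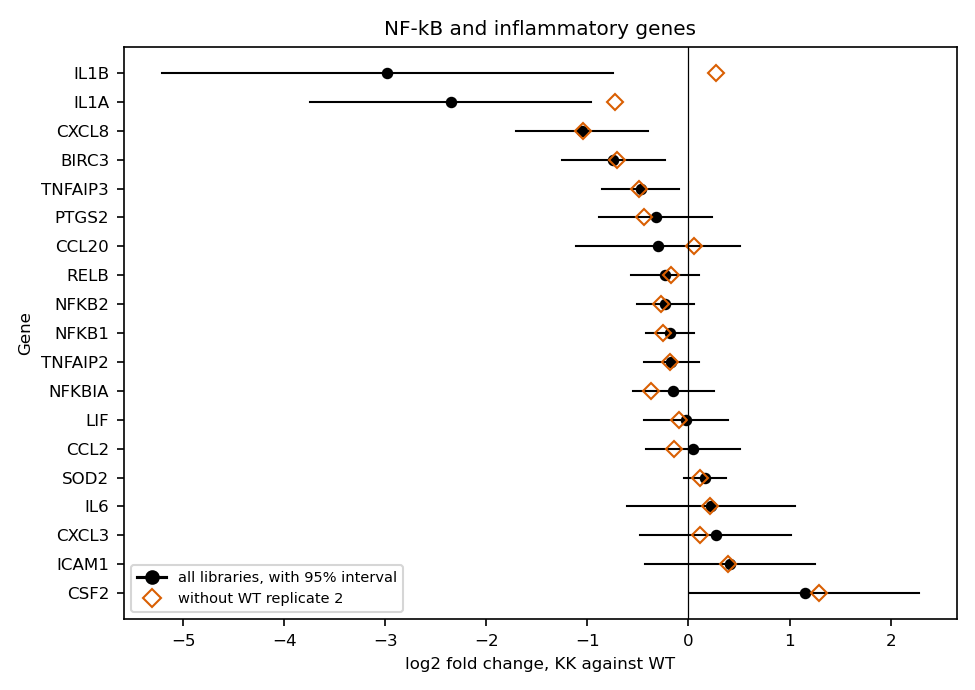
log2 fold changes of KK against WT of the 19 tested NF-kB and inflammatory genes; circles with 95% intervals are from all libraries, and diamonds are without WT replicate 2. CXCL8, BIRC3 and TNFAIP3 keep their values below 0, while IL1A and IL1B move from -2.35 and -2.98 to -0.72 and 0.27.

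Of 34 immediate early and ERK feedback genes, 5 (14.7%) were lower and 1 higher, and without WT replicate 2, 4 were lower and 0 higher. These genes are switched on within minutes by growth factors or are induced by ERK to damp it. NR4A3, an orphan nuclear receptor gene, was at 2.11, 1.98 and 0.918 CPM in pTRE, 17.5, 17.3 and 13.2 CPM in WT and 11.2, 8.59 and 9.20 CPM in KK. The lines did not overlap, and KK lay between pTRE and WT (log2 fold change -0.72, SE 0.21; -0.66 without WT replicate 2). FOSB (-1.08), EGR4 (-1.26), the phosphatase gene DUSP5 (-0.30) and SPRED3 (-0.33) were the other lower members, and IER3 (0.50) was the higher one. DUSP5 and IER3 were named after their values were seen.

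The interferon-stimulated genes went both ways. Of 38 tested, 5 were higher and 3 lower, and without WT replicate 2, 1 was higher and 2 lower; without both replicates 2, 4 were higher and 2 lower. RSAD2 (viperin) was higher in both analyses (1.46 and 1.14), and BST2 and IFI35 were lower in both, the latter on a mean of 7 reads per library, whereas IRF7 was lower only through WT replicate 2, with -2.22 going to -0.12. The median was 0.06 in both, and 0.11 without both replicates 2.

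Of 39 collagen and extracellular matrix genes, 1 was higher and 3 lower, and without WT replicate 2, 1 was higher and 4 lower; without both replicates 2, 2 were higher and 1 lower. THBS1 (thrombospondin 1) was at 329, 335 and 339 CPM in WT and at 482, 389 and 514 CPM in KK (0.47, SE 0.14; 0.47 without WT replicate 2). The lower genes were COL12A1 (-0.45, SE 0.17), COL18A1 (-0.39, SE 0.15) and COL4A2 (-0.37, SE 0.16), of which the latter pair lie in chromosomal regions described below. Of 38 glycolysis and hypoxia genes, 2 were higher and 3 lower, and without WT replicate 2, 1 was higher and 5 lower; without both replicates 2, 0 were higher and 2 lower. The pyruvate kinase gene PKM was higher (0.43, SE 0.14; 0.31 without WT replicate 2), and the hexokinase gene HK2 (-0.34, SE 0.13), PDK1 (-0.48) and ALDOC (-0.58, named after its value was seen) were lower. In cholesterol synthesis, HMGCS1, the HMG-CoA synthase, was lower in KK with 236, 184 and 238 CPM in WT and 172, 135 and 172 CPM in KK (-0.46, SE 0.13; -0.57 without WT replicate 2), while EBP was higher (0.55, SE 0.18), and 2 of 31 genes met the rule.

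The medians of several housekeeping groups moved by more than 1.5 times without the libraries numbered 2. Of 75 nuclear genes of the respiratory chain, 17 (22.7%) were higher in KK and 0 lower, with a median of 0.35. Measured against the mean of pTRE, the median log2 difference of these genes was -0.20, -0.82 and -0.19 in WT replicates 1 to 3 and -0.25, 0.29 and -0.23 in KK replicates 1 to 3. WT replicate 2 was thus the lowest and KK replicate 2 the highest, and the other 4 libraries lay between -0.25 and -0.19. Without WT replicate 2, 1 gene was higher and the median was 0.18; without both replicates 2, 0 were higher or lower and the median was -0.04. The 101 genes matched as cytosolic ribosomal protein genes, pseudogenes included, behaved alike: 8 were higher and 3 lower with a median of 0.31, which went to 0.12 and then to -0.10. So did the 44 spliceosomal snRNP and Sm genes, with 6 higher and 0 lower and medians of 0.24, 0.08 and -0.02, and the 31 proteasome genes, with medians of 0.20, 0.03 and -0.09. Of the 22 unfolded protein response genes, 5 were higher and 0 lower, and 1 was higher without WT replicate 2, with medians of 0.20, 0.08 and 0.05. In these, WT replicate 2 was the lowest library against pTRE, at -0.45, and KK replicate 3 the highest, at -0.03. In this group PDIA3, a disulfide isomerase of the endoplasmic reticulum, stayed higher in all 3 analyses (0.45, 0.33 and 0.29).

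**Figure D4:**
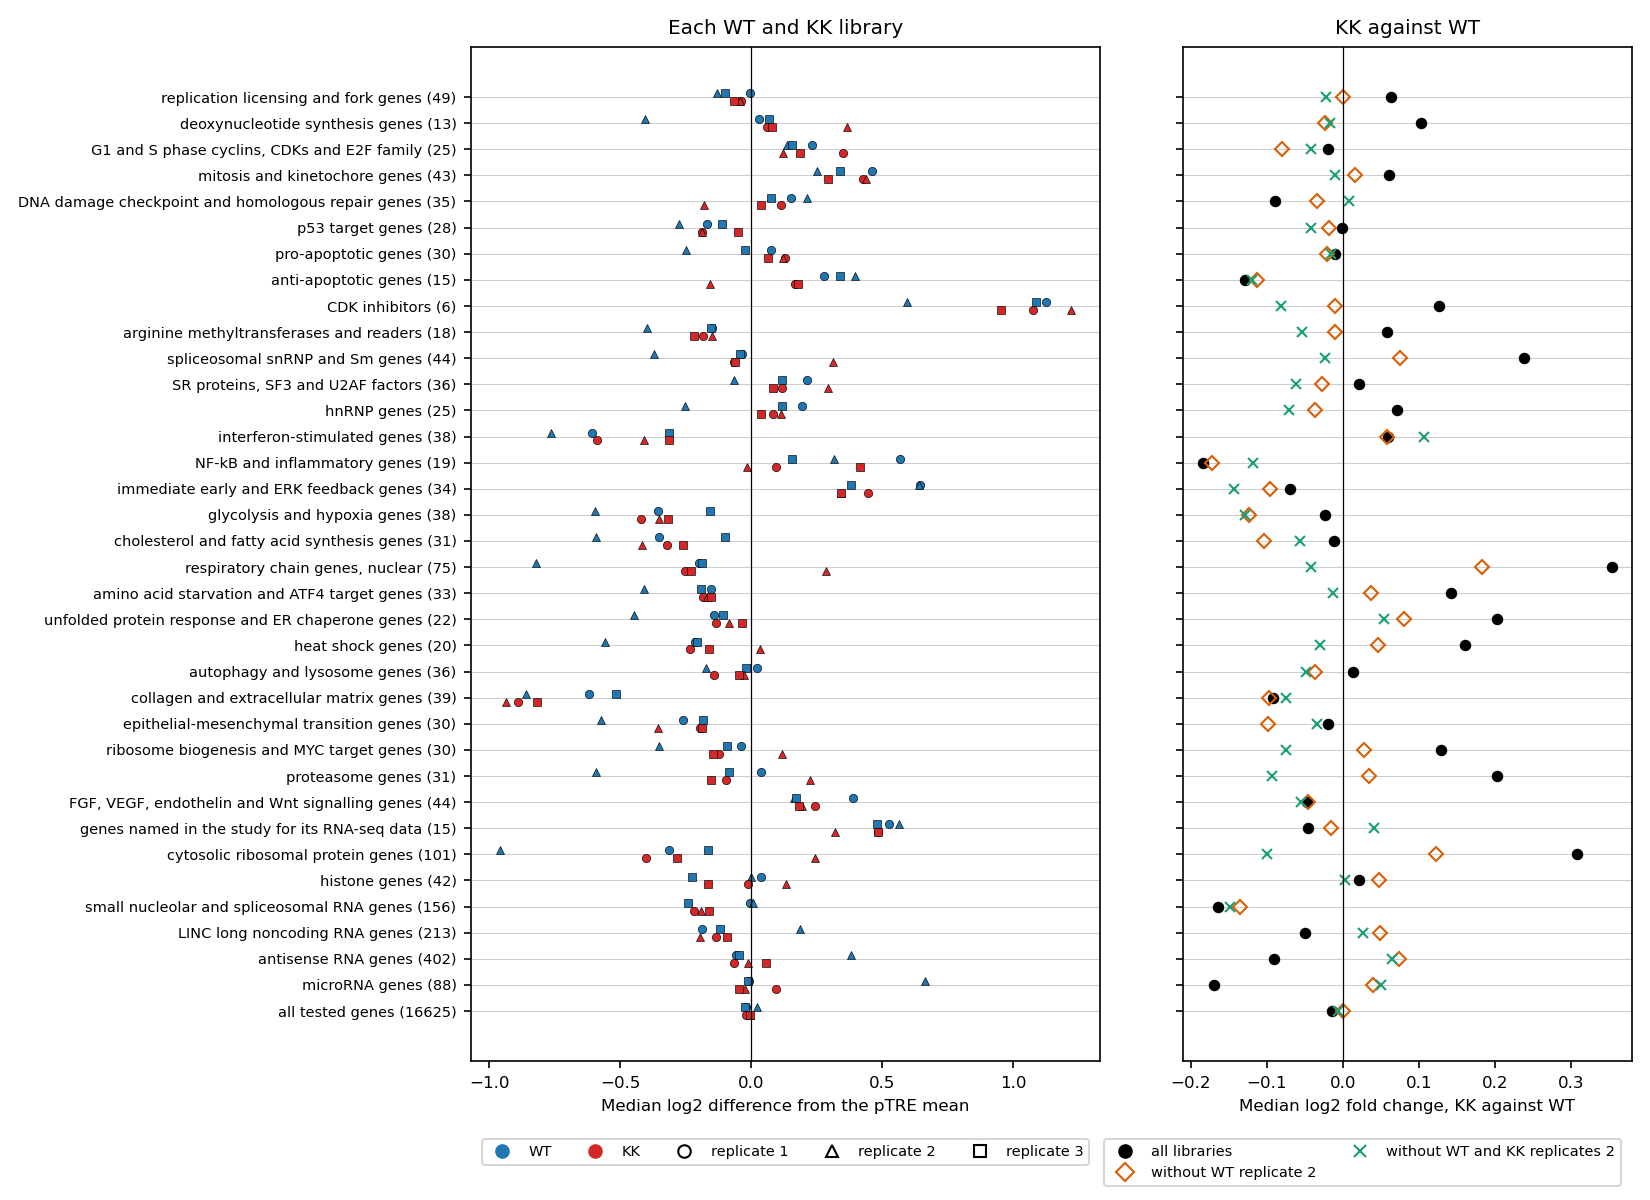
The left panel gives, for each gene group (number of genes tested), the median log2 difference from the pTRE mean in each WT (blue) and KK (red) library, and the right panel gives the median log2 fold change of KK against WT with all libraries, without WT replicate 2 and without both replicates 2. The right panel shows respiratory chain genes falling from 0.35 to 0.18 and -0.04, while NF-kB genes stay at -0.18, -0.17 and -0.12.

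The splicing factors, arginine methyltransferases and noncoding RNAs completed the groups. Of 18 arginine methyltransferase and reader genes, and of 25 hnRNP genes, 0 were higher and 0 lower; without WT replicate 2, 1 hnRNP gene was lower. PRMT1 was at 182, 118 and 177 CPM in WT and at 178, 230 and 167 CPM in KK, which overlap. Of 36 SR protein, SF3 and U2AF family genes, 2 were higher and 0 lower, of which CLK3, a kinase of SR proteins, was higher without WT replicate 2 as well (0.42 and 0.35). Without that library 1 gene was higher and 1 lower, and without both replicates 2, 0 were higher and 1 lower. The lowest log2 fold change of CLK3 over all alternatives was 0.23. Antisense RNA genes counted 5 higher and 24 lower of 402, and 5 higher and 2 lower without WT replicate 2. LINC genes counted 6 higher and 20 lower of 213, and 9 higher and 7 lower without it. The 10 lower microRNA genes, of 88 tested, included MIR3648, MIR3687 and MIR663A, at 3587, 1673 and 1273 CPM in WT replicate 2 and at 3.45 to 18.3 CPM in the other WT and KK libraries. Without WT replicate 2, 1 microRNA gene was higher and 4 lower of 92, and the median turned from -0.17 to 0.04. Small nucleolar and spliceosomal RNA genes counted 1 higher and 5 lower of 156, then 3 and 8 without WT replicate 2, and their median stayed at -0.16 and -0.14.

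The genes that the study names were a list taken at least partly from these samples. Of 15 tested, 0 were higher and 2 lower (13.3%, against 4.75% of all genes), and 0 met the rule without WT replicate 2. SENP7, which encodes a SUMO protease, was at 22.4, 26.1 and 23.5 CPM in WT and at 20.2, 12.8 and 21.4 CPM in KK (log2 fold change -0.40, SE 0.16), with KK replicate 2 the lowest. LRRC4 was at 6.66, 10.8 and 3.29 CPM in WT and at 4.84, 3.94 and 3.75 CPM in KK, which overlap (-0.70, SE 0.31; -0.25 without WT replicate 2). The replication licensing gene CDC6 had -0.05 (SE 0.12), FGF4 -0.18 (SE 0.26), ETV1 0.54 (SE 0.32), MECOM 0.17 (SE 0.12), the potassium channel-interacting genes KCNIP1, KCNIP2, KCNIP3 and KCNIP4 0.44, -0.49, 0.19 and -0.42, KAT2B 0.05 (SE 0.16) and SETD2 -0.26 (SE 0.15).

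Genes were finally grouped by position, a view chosen after the data were seen. Of 12820 placed genes with a mean of at least 50 reads, 49.4% had a negative log2 fold change, and their median was 0.00. The genome was divided into 241 bins of 10 Mb with at least 20 genes each, and the median of a bin was higher in all KK than in all WT libraries in 13 (5.39%) and lower in 10 (4.15%), shares close to the 4.81% and 5.16% of single genes. The count of such bins is therefore no result, and the regions below, picked for their values, are descriptions. The counts of lower and higher genes in them stand beside 4.75% lower and 3.76% higher of all tested genes, those with fewer reads included. Without WT replicate 2 these shares were 1.96% and 2.01%.

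On chromosome 14 between 30 and 80 Mb, 196 of 236 genes (83.1%) had a negative log2 fold change, with a median of -0.19, and 58 genes were lower and 3 higher at the unadjusted rule. Without WT replicate 2, 37 were lower and 3 higher with the same median of -0.19, and without both replicates 2 the median was -0.15. Relative to the mean of the WT and KK libraries, the median of these genes was 0.12, 0.10 and 0.06 in WT, -0.05, -0.18 and -0.08 in KK, and 0.20, 0.15 and 0.09 in pTRE. WDHD1 lies there. On chromosome 15 between 40 and 80 Mb, 193 of 276 genes (69.9%) were positive, with a median of 0.13, and 59 were higher and 4 lower; without WT replicate 2, 41 were higher and 0 lower, with a median of 0.15. The library medians were -0.07, -0.05 and -0.06 in WT, 0.10, 0.01 and 0.08 in KK, and -0.18, -0.17 and -0.21 in pTRE. CD276, GNB5, DUT, TIPIN, CLK3 and PDIA3 lie there.

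At the end of chromosome 13, from 110 Mb on, 26 of 30 genes (86.7%) were negative, with a median of -0.26, and 10 were lower and 0 higher with or without WT replicate 2. LINC00346 and COL4A2 lie there, together with RASA3, which encodes a Ras GTPase-activating protein (36.8, 38.4 and 33.1 CPM in WT, 26.8, 21.8 and 25.3 CPM in KK, -0.55, SE 0.12), LINC00452 (-0.58), TMCO3 (-0.40) and PCID2 (-0.39). The log2 fold change of LINC00346, at -1.90, was the lowest of the 30. The library medians were 0.10, 0.11 and 0.15 in WT, -0.13, -0.13 and -0.11 in KK, and -0.10, -0.04 and 0.12 in pTRE. On chromosome 21 between 40 and 50 Mb, where COL18A1 lies, 44 of 56 genes (78.6%) were negative, with a median of -0.16, and 11 were lower and 1 higher. Without WT replicate 2, 4 were lower and 0 higher, with a median of -0.18. There the library medians were 0.06, 0.05 and 0.10 in WT and -0.09, 0.01 and -0.09 in KK. Those of pTRE, at -0.09, -0.003 and 0.04, overlapped KK. Whether the copy number of these regions differs between the lines was not tested.

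**Figure D5:**
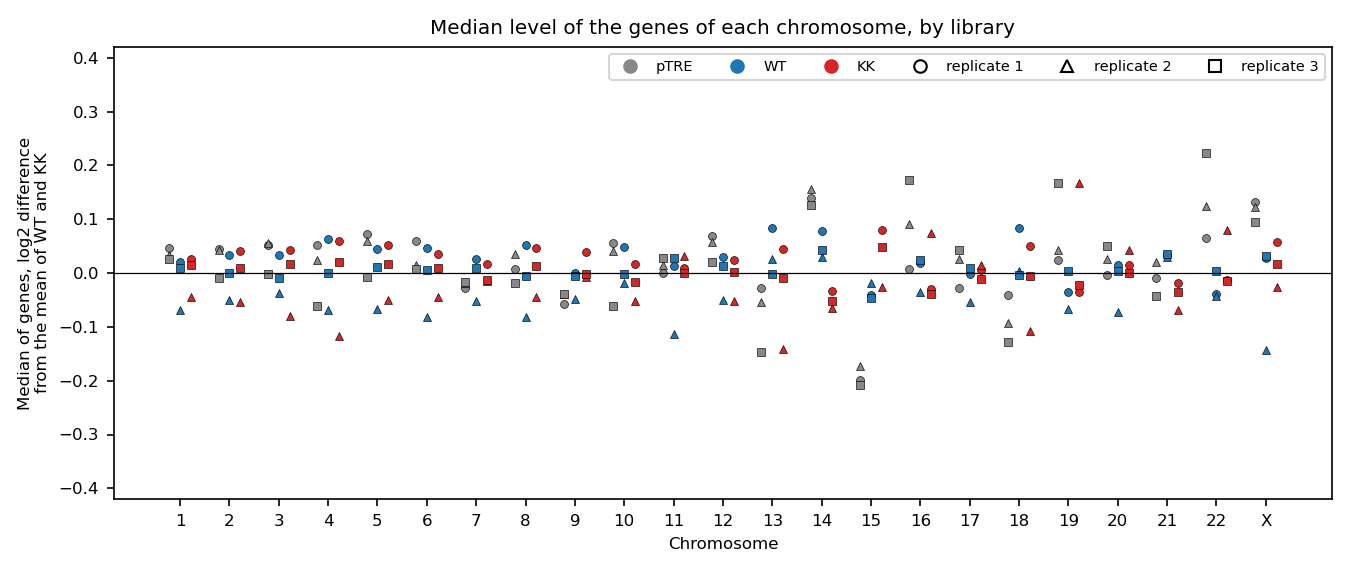
Each point is the median, over the genes of a chromosome with a mean of at least 50 reads, of the log2 difference from the mean of the WT and KK libraries, in pTRE (grey), WT (blue) and KK (red). KK lies below WT with no overlap on chromosomes 14 and 21, and 2 of the 3 KK libraries lie above all WT libraries on chromosome 15.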

How the data were processed

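Poly(A) RNA of 3 replicates of each line was sequenced as directional libraries. Per the labels and the methods, the authors trimmed reads with Trim Galore 0.4.3, aligned them to hg19 with STAR 2.5.1 and compared genes with DESeq2 1.16.1; the annotation version is not given in the sources used here. The deposited values are raw counts of reads on 25369 gene symbols, and 5 summary lines were left out, so that 31.2% to 65.7% of each library's counted reads were used (11500537 to 31040903 reads on genes). Counts were tested with edgeR 4.0.16 in R 4.3.3 (filterByExpr, TMM, quasi-likelihood fit of 1 mean per line to all 12 samples), which kept 16625 genes; log2 levels used a prior count of 2. Genes named in the text are E2F1, regulated genes, the 10 highest and 10 lowest ranked, up to 4 members of each gene list by lowest p, and genes the study names. Members and lists were chosen with earlier results of these data known. DESeq2 1.42.0, RLE normalization, other filters, fits to fewer samples and a replicate block were alternatives. Positions are from GENCODE on GRCh37, which placed 22722 symbols. P-values measure the spread between replicate samples of 1 line each, and an alternative without both replicates 2 was added after seeing the data. The values of 1 gene are not reported here.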

Additional observations from a re-analysis of the deposited data

Results flagged for a closer look

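The 2 genes that passed an adjusted p under 0.05 differed between the E2F1 lines by the test of the difference itself. LINC00346 had a log2 fold change of KK against WT of -1.90, and MMP19 of -0.97. Over the alternatives their adjusted p reached 0.188 and 0.307 (edgeR or DESeq2). In WT replicate 2, 58.7% of reads fell outside annotated genes, reads that enter no comparison of expression above. The highest pTRE library had 28.3% there.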

How the results depend on the processing

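The number of regulated transcripts was 1 with all samples, 5 with DESeq2, 4 with no filter on low counts, 0 with the 6 KK and WT samples only, 0 with 5 of them (no WT replicate 2), 0 with glmTreat against 2-fold, 2 at an adjusted p under 0.05 with no fold threshold, and 0 to 2 with each replicate left out in turn. With the replicate number as a block it was 0. The correlations of same-numbered KK and WT deviations were 0.08, -0.25 and -0.18, so the numbers were not taken to pair the samples, and KK replicates 2 and 3 each correlated best with another number; under the block, transcripts higher in KK than WT at unadjusted p under 0.05 numbered 564, and transcripts lower in KK than WT at unadjusted p under 0.05 numbered 686. These edgeR counts of 0 stand beside the following at an unadjusted p under 0.05: 275 genes were higher and 350 lower in the 6-sample fit, 219 and 197 in the 5-sample fit, and 313 and 259 without both replicates 2; leaving out 1 replicate gave 281 to 1178 higher and 329 to 1337 lower. The alternatives were compared for 119 named genes, all of which had an unadjusted p under 0.05 with all samples. Of these, 108 kept their sign in every alternative and 38 kept an unadjusted p under 0.05. Named genes that missed that rule were not counted, and not all of them kept their sign. KCNIP4, for example, went from -0.42 to 0.0075 without both replicates 2. The turns listed next are among the 119. The direction turned without WT replicate 2 for IL1B (0.27), RPS16P5 (0.17, and 0.17 in the 5-sample fit), MIR3687 (0.21 and 0.22) and MIR663A (0.46 and 0.47); over the single omissions their lowest values were -3.56, -2.88, -6.95 and -6.94. The cause was not tested. Without both replicates 2 it turned for these (IL1B 0.55, RPS16P5 0.42, MIR3687 0.34, MIR663A 0.53) and for FANCA (0.0175), SF3B5 (-0.0298), IRF7 (0.12), NHP2 (-0.0242), DNMBP-AS1 (0.29), BDNF-AS (0.0736) and MIR3648 (0.22). E2F1 was not called under any alternative, with edgeR or DESeq2 log2 fold changes from -0.62 to -0.24.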
